A study of Homo sapiens with 4 samples.

Results

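Solute carriers (SLC) and ATP-binding cassette (ABC) proteins were examined for N4-acetylcytidine (ac4C) in FaDu cells, an established line of human hypopharyngeal squamous carcinoma. A gene was included when its symbol started with SLC and a digit, other than the mitochondrial SLC25 carriers, or with ABCA to ABCG and a digit, and when the deposited table of peaks that differed between the conditions listed it. This gave 39 of the 2483 genes and 40 of the 2807 peaks in that table, 34 SLC and 5 ABC symbols. Having a differential peak is therefore fixed by the choice of the genes and is not a result. FaDu cells carried a control shRNA (shNC) or an shRNA against NAT10 (shNAT10), both delivered by lentivirus and selected with puromycin. Which shRNA sequence was in the shNAT10 cells, and whether more than 1 culture was used, are not given in the sources used here. Each condition had 1 immunoprecipitated (IP) and 1 input library of fragmented RNA, 4 libraries in all. The authors name total RNA in their methods and isolated mRNA in their results. There were no replicates, so no test between conditions could be run and every difference below compares these libraries.

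NAT10 is the enzyme known to acetylate cytidine in RNA. Solute carriers move nutrients, ions, metals and nucleotides across membranes down a gradient or coupled to an ion, whereas ABC transporters use ATP directly. In squamous tumours, amino acid and glucose carriers supply growth, zinc carriers set the zinc content of the cytosol and organelles, and nucleoside carriers take up nucleosides and their drug analogues. Some proteins with these names do not transport: ABCE1 and the ABCF proteins act on ribosomes, and SLC2A4RG, SLC4A1AP and SLC9A3R1 (NHERF1) are a transcription regulator, an adaptor protein and a scaffold named after a carrier. Without these, 33 of the genes encode membrane transport proteins or, for SLC3A2 (the CD98 heavy chain), a subunit of carriers.

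The values are those of 1 peak list per condition, with 6403 peaks in shNC and 6417 in shNAT10. Fold enrichment is the ratio of IP to input signal at a peak, and its median was 12.4 in shNC and 12.4 in shNAT10. The depth of the libraries is unknown, and the tables hold no reads, so neither the RNA level of a gene nor the knockdown of NAT10 could be measured. Of 10 squamous epithelial marker genes, 6 held a listed peak in at least 1 condition (TP63, SFN, PERP, DSP, JUP and EGFR), and KRT5, KRT14, KRT6A and KRT17 held none; a missing peak does not show that the RNA is absent. Positions are 1-based and were read as GRCh38. The 39 genes were found in RefSeq for GRCh38.p14, 37 by symbol and 2 by an older symbol, and 36 of the 40 peaks lay wholly inside the RefSeq gene.

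The first question was in which condition each of the 40 differential peaks was listed. Peaks were matched where their exonic blocks shared at least 1 nt on the same strand. By this rule, 12 peaks (30.0%, 95% Wilson interval 18.1 to 45.4) overlapped a peak of the shNC list only, against 32.2% of all 2807 differential peaks. A further 13 (32.5%, 20.1 to 48.0) overlapped a shNAT10 peak only, against 27.3%, and 15 (37.5%, 24.2 to 53.0) overlapped a peak of both lists, against 40.4%. Each share for the transporters had an interval that held the share of all peaks. The intervals cover the sampling of peaks only and not the variation between cultures. Fold enrichments of the shNC-only peaks ran from 11.3 in ABCF3 to 73.9 in SLC39A4, with a median of 18.6 (15.0 over all shNC-only peaks). The shNAT10-only peaks ran from 4.95 in SLC38A1 to 86.2 in SLC2A6, with a median of 14.9 (16.9 over all). The median log10 of the false discovery rate (FDR) of these peaks was -8.48 in shNC and -11.2 in shNAT10, against -11.7 and -12.3 over all peaks of the same kind.

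**Figure D1:**
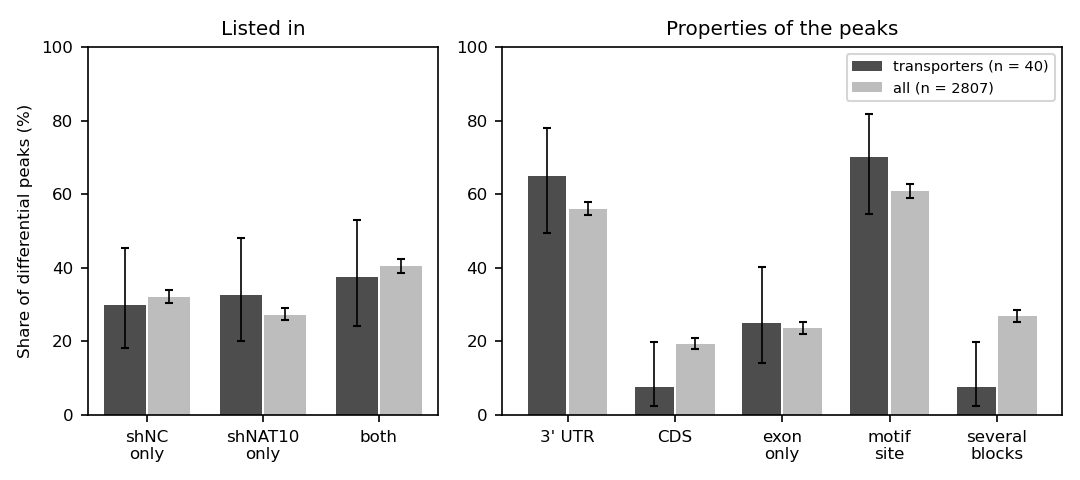
Share of differential peaks (%) by the list in which they were found (left) and by properties of the peak (right), for the 40 transporter peaks (dark) and all 2807 differential peaks (light); bars start at 0 and error bars are 95% Wilson intervals over peaks. The transporter shares by list lie close to those of all peaks, and peaks of several exonic blocks made up 7.5% of the transporter peaks and 26.9% of all.

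For the 15 peaks listed in both conditions the fold enrichments could be set side by side. Their median was 46.2 in shNC and 14.3 in shNAT10, against 16.8 and 14.6 over all differential peaks listed in both conditions. The transporter median was thus above that of all such peaks in shNC and close to it in shNAT10. For the 15 transporter peaks the median log2 ratio of shNAT10 over shNC was -1.39. Over all 1135 differential peaks listed in both conditions the median log2 ratio was -0.30, with the middle 50% of peaks from -1.46 to 1.19. At least 2-fold lower in shNAT10 were 9 of the 15 transporter peaks (60.0%, 35.7 to 80.2), against 33.8% of all such peaks, and at least 2-fold higher were 2 (13.3%, 3.74 to 37.9), against 28.5%. The table was itself built on a difference between these libraries, so these counts describe the transporter peaks and were not tested. In 4 of the 15 peaks, those of SLC29A1, SLC29A2, SLC39A7 and SLC26A6, the overlap with the differential peak fell below 50% in at least 1 condition. The shNAT10 peaks of SLC29A2 and SLC39A7 lay inside a longer shNC peak, and that of SLC29A1 overlapped the 3′ end of one. Only the listed peaks of SLC26A6 covered different stretches of the RNA, apart from a single shared nucleotide. With at least 50% of both peaks shared, 11 transporter peaks were left. Of these 11, 5 were lower and 2 higher, against 32.2% and 28.4% of all peaks under that rule. The 4 peaks lost were all among the 9 lower ones. How IP and input were scaled to each other is not stated, which touches each ratio.

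**Figure D2:**
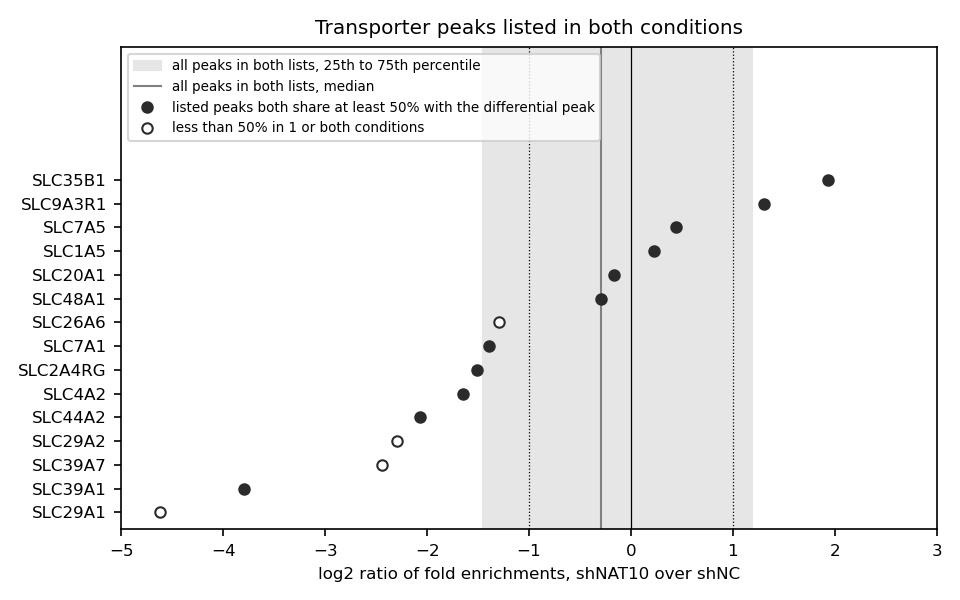
Log2 ratio of the fold enrichment in shNAT10 over that in shNC for the 15 transporter peaks listed in both conditions, 1 point per peak; dotted lines mark 2-fold, and the grey band and line give the middle 50% and the median of all 1135 such peaks. Open points share less than 50% of their length with a listed peak in 1 or both conditions; the lowest points are SLC29A1 at -4.62 and SLC39A1 at -3.80, and the highest are SLC9A3R1 at 1.31 and SLC35B1 at 1.93.

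The 4 zinc carriers of the SLC39 (ZIP) family that had a differential peak had either a shNC-only peak or a fold enrichment at least 2-fold lower in shNAT10. This also held for 45.9% of all 2807 differential peaks. SLC39A1 (ZIP1), which brings zinc in at the cell surface, had a peak over the same 271 nt in both lists (chr1:153959159-153959429, minus strand, classed as exon). Its fold enrichment was 99.8 in shNC, higher than 98.1% of the shNC list, and 7.18 in shNAT10, a 13.9-fold difference. SLC39A7 (ZIP7) releases zinc from the endoplasmic reticulum, and its 3′-UTR peak (chr6:33203661-33204379, plus strand) had 77.8 in shNC. In shNAT10 the stretch held separate peaks of 120 nt and 240 nt with 15.2 and 14.3. SLC39A4 (ZIP4), the main importer of dietary zinc, had a fold enrichment of 73.9 in a shNC peak of 481 nt. Its differential peak of 151 nt lay at the 5′ side of that peak, where shNAT10 had none, but a shNAT10 peak with a fold enrichment of 27.0 began 89 nt further towards the 3′ end and overlapped the downstream part of the shNC peak. SLC39A3 (ZIP3) had 30.4 in shNC (chr19:2734946-2735186, minus strand, 3′-UTR) and no shNAT10 peak at this place, while a weaker peak near the gene end was listed in both conditions with 4.42 and 4.37. A peak that only shNAT10 had, with 20.3, lay 1696 nt downstream of the differential peak.

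Both equilibrative nucleoside transporters, which carry nucleosides and cytotoxic nucleoside analogues into cells, had a fold enrichment at least 2-fold lower in shNAT10, as had 33.8% of all peaks listed in both conditions. SLC29A2 (ENT2) had 59.4 in shNC and 12.1 in shNAT10 in the 3′-UTR (chr11:66362551-66363059, minus strand), and the listed peak was 539 nt long in shNC and 181 nt in shNAT10. SLC29A1 (ENT1) had 44.5 in a shNC peak of 626 nt and 1.81 in a shNAT10 peak of 180 nt at the differential peak (chr6:44233794-44234062, plus strand, 3′-UTR). A further shNAT10 peak of SLC29A1, with a fold enrichment of 13.1, overlapped the same shNC peak further upstream, so the 24.6-fold difference sets a long shNC peak against the shorter shNAT10 peak at its 3′ end.

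The 7 genes grouped as amino acid carriers did not share a direction. SLC7A5 (LAT1), which takes up leucine and other large neutral amino acids, had the highest shNAT10 value of all 40 peaks, 98.0 against 72.0 in shNC, over a 3′-UTR peak with 6 CXXCXXCXXCXX sites (chr16:87830053-87830650, minus strand). Its partner SLC3A2 (the CD98 heavy chain) had a differential peak in the coding sequence (CDS) with 17.5 in shNC and none in shNAT10 (chr11:62885198-62885497, plus strand). At the 3′ end of SLC3A2, however, another peak was listed in both conditions, with fold enrichments of 19.4 and 20.1. SLC7A1 (CAT1), an arginine and lysine carrier, had 83.8 in shNC and 31.9 in shNAT10 in its 3′-UTR (chr13:29509440-29509769, minus strand), 2.63-fold apart. The glutamine carrier SLC1A5 (ASCT2) had low and nearly equal values, 4.30 in shNC and 5.03 in shNAT10. SLC6A9 (GLYT1, a glycine carrier) had 21.1 in shNC and no shNAT10 peak. SLC1A4 (ASCT1, a serine and alanine carrier) had 12.4 in shNC at its differential peak, but a shNAT10 peak with the higher value of 36.3 lay 567 nt downstream, where shNC had none. SLC38A1 (SNAT1), another glutamine carrier, had a shNAT10-only peak with 4.95. The stronger signal of SLC38A1 lay 4316 nt downstream near the gene end, where a shNC peak with 40.6 overlapped shNAT10 peaks with 22.6 and 8.87.

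Among the carriers of inorganic ions, SLC4A2 (AE2, a chloride and bicarbonate exchanger) had the most motif sites of any transporter peak, 8 in a 3′-UTR peak of 391 nt (chr7:151076037-151076527, plus strand). Its fold enrichment was 34.4 in shNC and 11.0 in shNAT10. SLC20A1 (PIT1, a sodium-coupled phosphate carrier) had 51.1 and 45.6 at the same 271 nt, a ratio of 0.892. SLC26A6, an anion exchanger, had 49.7 and 20.3, but the shNC and shNAT10 peaks met at a single nucleotide and otherwise covered different stretches. SLC12A4 (KCC1, a potassium and chloride cotransporter) had 39.7 in shNC and no shNAT10 peak anywhere in the gene. SLC12A9 had 13.5 in shNAT10 at the differential peak, and a shNC peak with 6.56 lay 59 nt upstream of it.

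The 3 genes grouped as sugar carriers had a peak in the shNAT10 list only, and none of them had any shNC peak. Over the whole table, 27.3% of peaks were listed in shNAT10 only and 19.6% of genes had a shNAT10 peak only. SLC2A6 (GLUT6) had the highest value of the shNAT10-only peaks, 86.2 (chr9:133471185-133471425, minus strand, exon). SLC2A1 (GLUT1), the main glucose importer of many tumour cells, had 14.8 in its 3′-UTR (chr1:42926271-42926391, minus strand), and SLC50A1 (SWEET1), a sugar carrier, had 14.0. SLC5A2 (SGLT2), a sodium-coupled glucose carrier known from the kidney, likewise had a peak in shNAT10 only, with 7.68. SLC16A1 (MCT1), a lactate and pyruvate carrier, had 12.0 in shNC and no shNAT10 peak. SLC37A4, the glucose-6-phosphate carrier of the endoplasmic reticulum, had 14.2 in shNC and likewise none in shNAT10. Each of these is 1 peak in 1 library.

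Many carriers of the SLC35 family, though not every member, bring nucleotide sugars and related donors into the endoplasmic reticulum and Golgi. SLC35B1 had the largest ratio of shNAT10 over shNC, with 11.5 in shNC and 43.9 in shNAT10, a 3.82-fold difference (chr17:49701332-49701660, minus strand, exon). A second SLC35B1 peak, with 15.2, was listed in shNAT10 only. A shNAT10-only peak was listed for SLC35A1, the CMP-sialic acid carrier, with 31.3, and for SLC35B2, the carrier of the sulfate donor PAPS, with 7.97. SLC35B2 also had a peak listed in both conditions closer to the 3′ end, with 18.0 in shNC and 27.7 in shNAT10. SLC35C2 had 24.9 in shNC only.

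The 5 ABC genes each had a differential peak listed in 1 condition only, as had 59.6% of all differential peaks. ABCB6, which is linked to porphyrin transport, had 35.5 in shNAT10 across 3 exonic blocks of its CDS (chr2:219210007-219210571, minus strand). A differential peak of the neighbouring gene ATG9A overlapped this place, so the signal cannot be assigned to 1 gene, and no shNC peak was listed for ABCB6. ABCB9 (TAPL), a lysosomal peptide transporter, had the only peak of the set classed as 5′-UTR, with 19.7 in shNC (chr12:122980961-122981080, minus strand). That peak was not wholly inside the RefSeq gene and reached past its 5′ end. In shNAT10 an ABCB9 peak with 4.86 lay 89 nt upstream. ABCE1, which recycles ribosomes, had 13.8 in shNC in its 3′-UTR and 11.0 in shNAT10 at a place 1197 nt upstream. ABCF3 had 11.3 in shNC at the differential peak and 4.65 in shNAT10 at a place 6715 genomic nt upstream. ABCF2 was listed the other way, with 14.9 in shNAT10 and, 208 nt downstream, 5.06 in shNC.

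SLC44A2 (CTL2, a choline carrier) was the 1 gene with more than 1 differential peak, and its peaks differed in direction. The peak at the end of the 3′-UTR (chr19:10644020-10644559, plus strand) had 46.2 in shNC and 11.0 in shNAT10, and a peak upstream of it (chr19:10643240-10643390) had 32.1 in shNAT10 and was not listed in shNC. SLC48A1 (HRG1, a heme carrier) had 39.0 and 31.9 at its differential peak, and its 3′-terminal peak, which was not in the differential table, had 122 in shNC and 58.1 in shNAT10. The partner gene SLC2A4RG had 20.7 in shNC and 7.27 in shNAT10, SLC9A3R1 had 11.4 and 28.2, and SLC4A1AP had 43.1 in shNAT10 only.

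**Figure D3:**
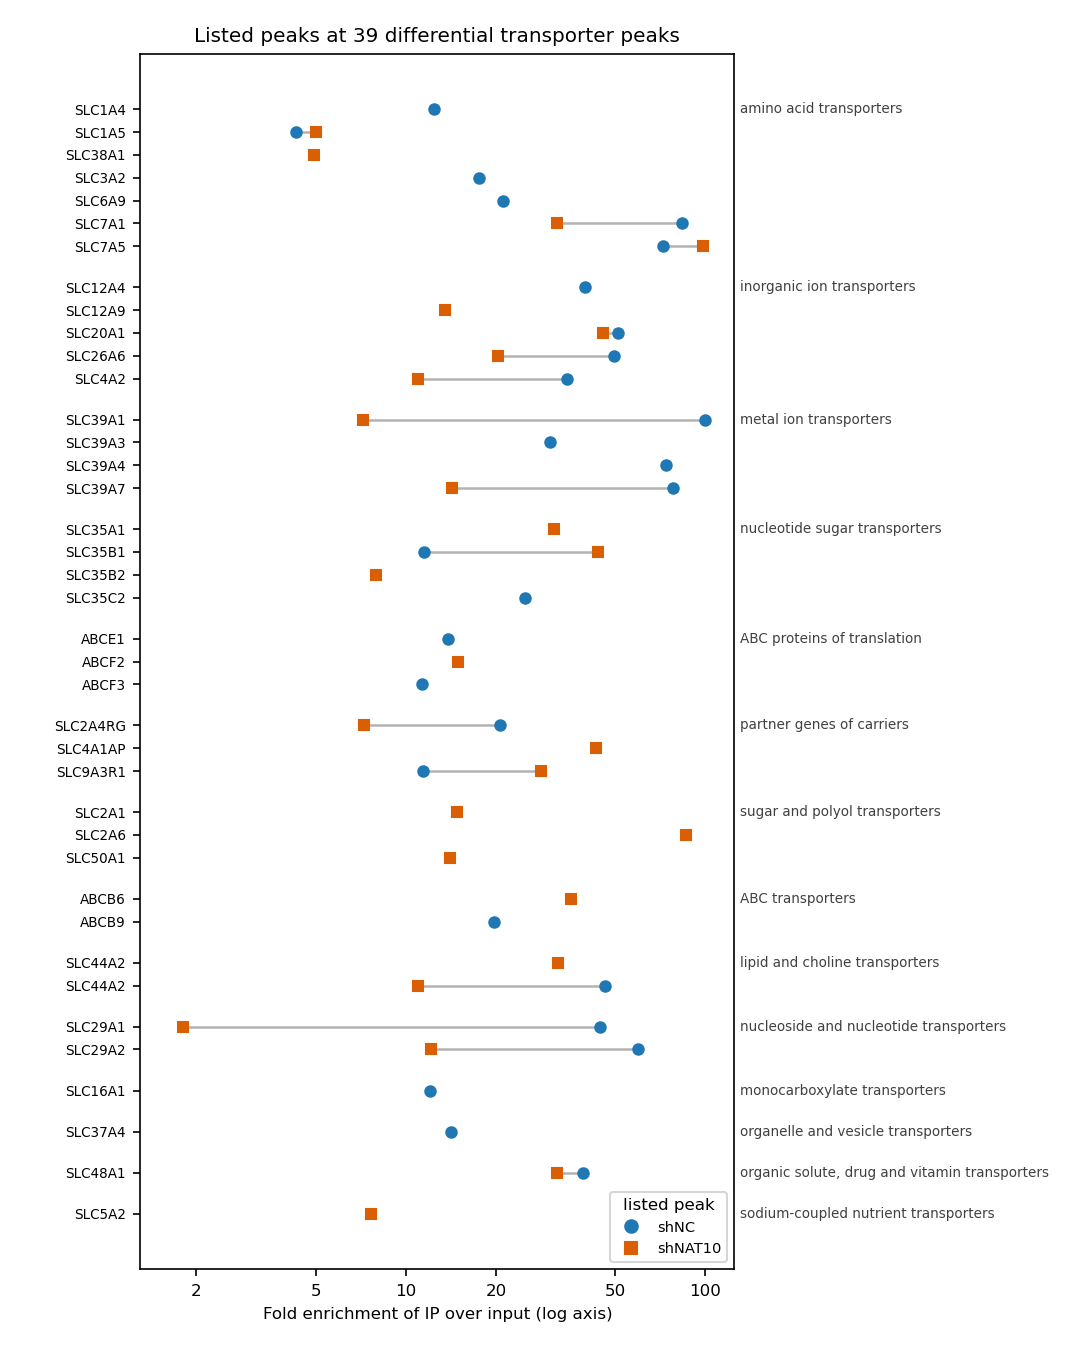
Fold enrichment of IP over input (log axis) of the listed peak at 39 differential transporter peaks, by transported solute; circles are shNC, squares are shNAT10, a grey line joins a peak listed in both, and a missing symbol means that no peak was listed there. The zinc and nucleoside carriers show shNC values from 30.4 to 99.8 with lower or missing shNAT10 values. SLC39A3 and SLC39A4, which lack a shNAT10 symbol, had shNAT10 peaks elsewhere in the gene. The 3 genes grouped as sugar carriers show shNAT10 values only.

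A peak listed in 1 condition was not always the only peak of its gene. The member genes had 43 listed peaks in shNC, in 31 genes, and 47 in shNAT10, in 34 genes. Listed peaks were found in both conditions for 26 of the 39 genes (66.7%, 51.0 to 79.4), in shNC only for 5 and in shNAT10 only for 8. Over all 2483 genes of the table, 58.9% had a peak in both lists, 21.5% in shNC only and 19.6% in shNAT10 only. Of the 12 genes with a shNC-only differential peak, 7 had a shNAT10 peak elsewhere, and SLC12A4, SLC16A1, SLC35C2, SLC37A4 and SLC6A9 had none. Of the 13 genes with a shNAT10-only differential peak, 5 had a shNC peak elsewhere and 8 had none, among them ABCB6, SLC2A1, SLC2A6, SLC35A1, SLC4A1AP, SLC50A1 and SLC5A2. Counted by gene, 12.5% of the 40 differential peaks were of genes listed in shNC only, against 20.1% of all differential peaks. Those of genes listed in shNAT10 only made up 20%, against 17.8% of all. In SLC35B2, SLC38A1, SLC39A3, SLC3A2 and SLC44A2, peaks of both conditions overlapped at another place of the gene. Besides these, SLC39A3 had the peak with 20.3 in shNAT10 alone, and SLC44A2 had one with 5.39 in shNC alone.

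**Figure D4:**
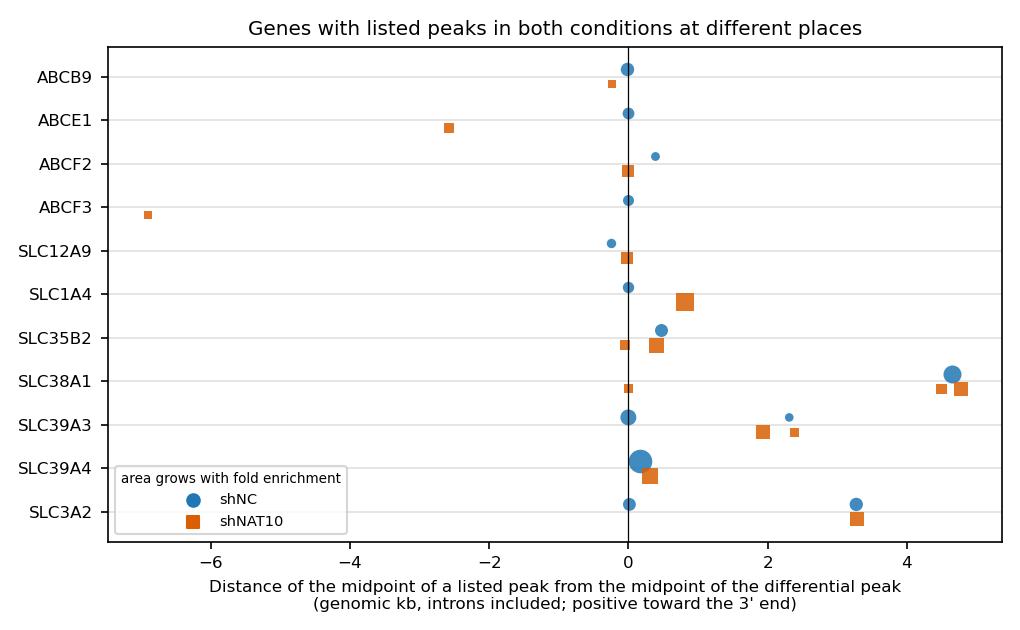
Distance (genomic kb, introns included, positive towards the 3′ end) of each listed peak's midpoint from the midpoint of the differential peak, for the 11 genes with listed peaks in both conditions whose differential peak was listed in 1 only; circles are shNC, squares shNAT10, and the area grows with fold enrichment. The shNC peak of SLC39A4, whose midpoint lies 165 nt off, overlaps a shNAT10 peak, and in SLC35B2, SLC38A1, SLC39A3 and SLC3A2 both conditions have overlapping peaks downstream of the differential peak.

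The 3′-UTR held 26 of the 40 peaks (65.0%, 49.5 to 77.9), against 56.1% of all differential peaks. The median distance from a 3′-UTR peak to the RefSeq end of its gene was 98 nt, and 16 of the 26 lay within 500 nt of it, the farthest being that of SLC38A1 at 4947 nt. Another 10 (25%) carried the class exon alone, against 23.7%. The CDS held 3 peaks (7.5%, 2.58 to 19.9), those of ABCB6, SLC35B2 and SLC3A2, against 19.4% of all. Peaks that spanned several exonic blocks were found in ABCB6, SLC26A6 and SLC4A2 (7.5%, 2.58 to 19.9), against 26.9% of all. At least 1 CXXCXXCXXCXX site (cytidines spaced by X, any nucleotide) was listed in 28 peaks (70.0%, 54.6 to 81.9), against 60.9% of all. Not every listed site lay in the exonic blocks of its peak. Of the 3 listed for SLC26A6 none did, of the 3 for ABCB6 1 did, and the 1 for SLC3A2 did not. With all listed sites counted, inside or outside the blocks, their density was 0.538 sites per 100 nt of exonic length, against 0.530 over all peaks. The sites inside the blocks were not counted over all peaks. Of the 15 peaks listed in both conditions, 14 had a listed site (93.3%, 70.2 to 98.8), SLC26A6 only outside its blocks and SLC20A1 none. Among the others, 7 of 12 shNC-only peaks (SLC3A2 only outside its block) and 7 of 13 shNAT10-only peaks had a listed site. The same order held over all differential peaks, with a site in 73.7% of those in both lists, 52.3% of shNC-only and 52.2% of shNAT10-only peaks, and the interval for the transporter peaks in both lists held 73.7%. The peaks in both lists were also longer, with a median of 360 nt against 226 and 181 nt, and the same order of length held over all peaks (360, 207 and 181 nt). The part of peak length in the site counts was not tested. The sequences of the peaks were not analysed here.

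Other transport genes outside the symbol rule were counted in the same table. Of the mitochondrial SLC25 carriers, 7 genes had 8 differential peaks, 3 in shNC only, 1 in shNAT10 only and 4 in both. Of these 4, 1 was at least 2-fold lower in shNAT10, 2 were at least 2-fold higher and 1 was between. Both higher peaks were of SLC25A10 (the dicarboxylate carrier), with 13.3 and 12.4 in shNC against 79.4 and 39.4 in shNAT10. The lower peak was that of SLC25A39, with 22.4 in shNC and 7.15 in shNAT10. Subunits of the vacuolar proton pump, which acidifies lysosomes, had 13 peaks in 10 symbols (one a read-through symbol, ATP6V1G2-DDX39B), 2 in shNC only, 4 in shNAT10 only and 7 in both, of which 2 were at least 2-fold lower in shNAT10, 2 at least 2-fold higher and 3 between. The calcium pump ATP2A2 had 36.2 and the organic anion carrier SLCO4A1 had 8.63, both in shNC only. LRRC8D, a subunit of volume-regulated anion channels, had a CDS peak in shNC only (24.9) and a 3′-UTR peak in shNAT10 only (41.4). No aquaporin and none of TAP1, TAP2 and CFTR had a row. By position, 49 further gene identifiers in the lists lay in 1 protein-coding SLC or ABC gene without a row in the differential table, 19 with a peak in both lists, 12 in shNC only and 18 in shNAT10 only. This placing was right for 95.1% of 4579 listed peaks of genes with a known symbol, so these identifiers are given as counts only.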

How the data were processed

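The acRIP-seq libraries were sequenced and analysed by a company for the authors. The submitters' processing notes name cutadapt 2.5, HISAT2 2.1.0, HOMER 4.10.4 and featureCounts 1.6.3, and the builds GRCh38, hg38 and GRCm38 (mouse), without their roles. Positions were read as GRCh38 because they fell in the RefSeq genes of the same symbol. The peak caller and its thresholds are not given in the sources used here. The authors deposited 1 peak list per condition, giving each peak's fold enrichment (a ratio, IP to input) and its log10 FDR, and 1 table of differential peaks with region class, symbol and CXXCXXCXXCXX sites. Lists were assigned to conditions by a prefix shared with the library titles. The table's fold change, p-value and FDR between the conditions are the authors' own comparison and were not used.

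Peaks were matched by overlap of exonic blocks (at least 1 nt, same strand), and the listed peak with the longest overlap gave the fold enrichment. The overlap was tested on simulated data. Shares have 95% Wilson intervals. Python 3.11.15 was used with pandas 2.3.3, numpy 2.4.6, matplotlib 3.10.9 and scipy 1.17.1.

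The genes and lists were chosen with earlier results of these data known. Named were all ABC genes, the members of a list of 30 known transporters (11 had a row), genes with at least 2 differential peaks, genes of role groups with 5 or fewer members, and the 5 highest fold enrichments per list (also among peaks of 1 list only) and the 5 lowest and 5 highest ratios. Alternatives were stricter peaks or overlap, genes in place of peaks, another fold limit or centring, and other counts of regions and sites. The values of 1 gene are counted but not reported here.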

Additional observations from a re-analysis of the deposited data

How the results depend on the processing

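Of 58 alternatives, 48 left a share within its 95% interval or a count within 1.5 times, and 10 moved it. The order of shNC-only (12) and shNAT10-only (13) peaks was not stable. With at least 50% of both peaks shared they were 14 (35%) and 13 (32.5%), against 35.9% and 29.7% of all. Under that rule 2 of the 40 peaks had no listed peak left. Counting any listed peak of the same gene in place of the same position gave 12.5% in shNC only, 20% in shNAT10 only and 67.5% in both (20.1%, 17.8% and 62.1% of all differential peaks), and 3 of 14 role groups in place of 5 had more shNC-only peaks, while 4 in place of 6 had more shNAT10-only peaks. With listed peaks at an FDR of at most 1e-10, 20% were in shNC only and 20% in shNAT10 only (25% and 22.8% of all), since 12 of the 40 peaks had no listed peak left. With at least 50% of both peaks shared, 5 of 11 peaks in place of 9 of 15 were at least 2-fold lower in shNAT10. Without the partner genes and the ABC proteins of translation, a choice made after seeing the data, 1 peak in place of 2 was at least 2-fold higher. Without peaks classed only as exon, the 3′-UTR share was 86.7% (73.5% of all differential peaks). At least 2 motif sites were listed in 45.0% of the peaks (38.2% of all), and a site within 100 nt around the midpoint of peaks with 1 block in 35.1% (38.4% of all). Where the alternative's own construction does not show it, the cause was not tested. No antisense or noncoding symbol matched the rule, so leaving these out gave no other value. No paired analysis was possible because neither condition was replicated. Without replicates or known depth, no difference here can be separated from variation between libraries.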
